A study of Mus musculus with 2 samples.

Results

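Rnase4 (ENSMUSG00000021876) and Ang (ENSMUSG00000072115), 2 of the 31053 genes in the count matrices, were taken by symbol because both were higher in insulin-expressing cells of the Npc1-/- library. The genotype contrast in those cells is therefore given as a description. Single cell RNA sequencing had been run on dispersed islets of 2-week-old female C57BL/6J mice, with 1 WT library and 1 Npc1-/- library, each from the pooled islets of 3 mice. The Npc1-/- mice came from matings of Npc1+/- mice, WT littermates served as controls, and the loss was global, so that islet cells lacking Npc1 also lay in an affected animal. NPC1 exports cholesterol from the lysosome, and the libraries were made to follow what its loss does to postnatal β cells. With 1 library per genotype there was no replicate and no test between genotypes. All intervals are at 95% and cover counting error only.

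RNase 4 and angiogenin, the products of Rnase4 and Ang, are small secreted ribonucleases of the RNase A superfamily. In mammals both genes are read from shared promoters, and each protein is encoded in a last exon of its own, so that splicing decides which of them a transcript makes. Angiogenin promotes the growth of blood vessels, and inside stressed cells it cuts tRNA in the anticodon loop. The ribonuclease inhibitor encoded by Rnh1 binds and blocks enzymes of the family in the cytosol. Liver is a classical source of both enzymes in blood.

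In the annotation of GRCm38, the build that the files use as mm10, both genes lay on the plus strand of chromosome 14, Rnase4 from 51091077 to 51106151 and Ang from 51091150 to 51102009. Each had a pair of annotated transcripts. The upstream leading exons, which started at 51091077 for Rnase4 and at 51091150 for Ang, both ended at 51091253. The downstream leading exons started at 51096359 for Rnase4 and at 51096000 for Ang and both ended at 51096473. The last exon of Ang, from 51101386 to 51102009 with the coding part from 51101404 to 51101838, lay inside an intron of Rnase4. The last exon of Rnase4 ran from 51104807 to 51106151, with the coding part from 51104821 to 51105264. Reads at the 3′ end therefore separate spliced transcripts of the 2 genes, but an unspliced Rnase4 transcript and Ang cannot be told apart within the last exon of Ang, and leading-exon reads match both.

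**Figure D1:**
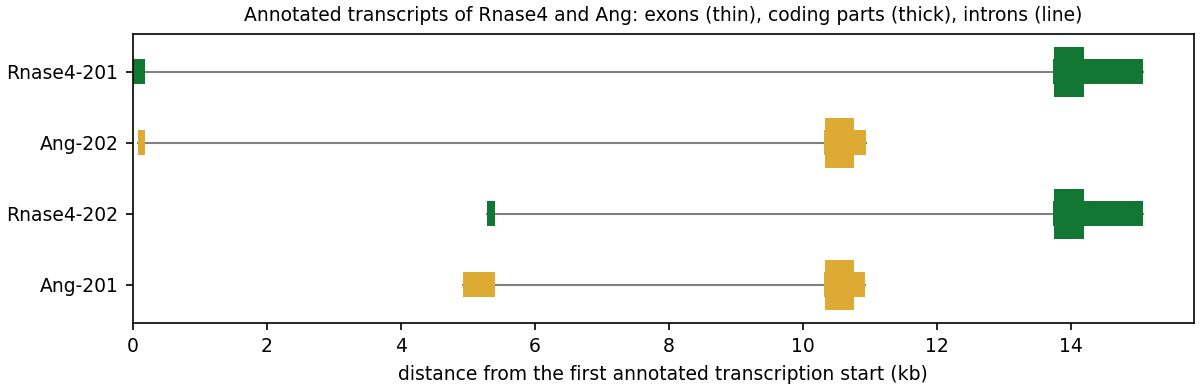
Annotated transcripts of Rnase4 (green) and Ang (yellow) by distance from the upstream transcription start, in kb. Both genes use the same 2 leading-exon positions, near 0 and about 5 kb, and have separate last exons that hold the coding parts (thick boxes).

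The RefSeq promoter table of GRCm38.p6 listed both genes, and it gave both of them the same window at the upstream start. It listed a further window, at 51096000, under Rnase4, whereas the GENCODE annotation above has an Ang transcript start at that base and the downstream Rnase4 transcript at 51096359. The 250 bases before each start are shown because the shared one is what makes these genes a pair. They are written 5′ to 3′ on the plus strand, and capitals mark a match to CCAAT.
Shared by Rnase4 and Ang, chr14:51090827-51091076: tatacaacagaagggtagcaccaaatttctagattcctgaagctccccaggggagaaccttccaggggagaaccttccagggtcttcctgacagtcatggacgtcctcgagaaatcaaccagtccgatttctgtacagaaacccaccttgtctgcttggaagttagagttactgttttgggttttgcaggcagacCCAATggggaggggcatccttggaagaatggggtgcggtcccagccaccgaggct
Downstream, chr14:51095750-51095999: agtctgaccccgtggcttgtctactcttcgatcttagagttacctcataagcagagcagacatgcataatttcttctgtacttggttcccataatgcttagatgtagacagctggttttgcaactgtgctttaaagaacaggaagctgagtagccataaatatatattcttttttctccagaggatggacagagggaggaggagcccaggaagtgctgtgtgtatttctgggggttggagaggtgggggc
Matches on both strands are given for 5 motifs, namely the TATA box (TATAAA), the CCAAT box (CCAAT), the GC box (GGGCGG), the E-box (CACGTG) and the lysosomal CLEAR element, which contains the E-box. The shared window held 1 match, a CCAAT 55 to 51 bases before the start, a motif that 33.8% of all 32851 windows in the table held. The downstream window held none of the 5. The shares of all windows were 12.4% for TATAAA, 32.7% for GGGCGG, 6.02% for CACGTG and 0.240% for the CLEAR element. The shared window had a GC content of 52.4%, the same as the median window, and the downstream one 46.0%.

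After filtering, 4628 WT and 4269 Npc1-/- cells remained, with medians of 18905 and 21381 UMIs (unique molecular identifiers, each a captured transcript). Cells were classed by the hormone that led their transcripts, and the others by marker genes. Insulin cells numbered 1833 and 1826, with 30417 and 30094 UMIs at the median. Their β cell markers (Ucn3, Mafa, Slc2a2, G6pc2, Nkx6-1, Pdx1 and Iapp) summed to 46385 and 45372 CPM (counts per 1e6 UMIs). Such a sum does not show the single markers, and 267 WT but 520 Npc1-/- insulin cells had under 100 CPM of Ucn3 and Mafa together. Somatostatin cells also carried Ppy and Pyy at 11.1% and 11.8% of their UMIs, and 7 WT and 3 Npc1-/- cells of that class lacked a second hormone group at 5% or more. The libraries shared 12 barcodes, 3 of them among kept cells. As a check of the labels, Npc1 had 319 UMIs (5.82 CPM) in insulin cells of the WT library and 143 (2.64 CPM) in the library labelled Npc1-/-, so that the targeted transcript was lower there but present. Which part of the gene the allele removes is not given in the sources used here.

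Both genes stood at higher levels in insulin cells of the Npc1-/- library than of the WT library. For Rnase4, 3142 UMIs were counted in WT insulin cells and 6909 in Npc1-/- insulin cells, or 57.3 CPM (55.4 to 59.4) and 128 CPM (125 to 131), a ratio of 2.23 (2.13 to 2.32). For Ang, the counts were 1025 and 2114, or 18.7 CPM (17.6 to 19.9) and 39.0 CPM (37.4 to 40.7), a ratio of 2.09 (1.94 to 2.25). The intervals of the libraries did not overlap for either gene. The median of all genes was itself 0.12 higher on the log2 scale in Npc1-/- insulin cells, and against it Rnase4 had a log2 ratio of 1.03 (0.97 to 1.10) and Ang of 0.94 (0.83 to 1.05). Among the 8858 genes that reached 5 CPM in 1 or both libraries, Rnase4 ranked 14 and Ang 18 from the top. Both passed a log2 ratio of 0.5 in the higher direction, which 2.16% of the genes did (2.12% passed -0.5), and nothing is read from this because the genes were chosen by this contrast.

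Glucagon cells, the α cells of the islet, had higher CPM of both transcripts than insulin cells and differed little between libraries. Counted per cell, Rnase4 in Npc1-/- went the other way, with 3.32 UMIs per glucagon and 3.78 per insulin cell. The insulin cells were deeper, however, with medians of 19110 UMIs in glucagon and 30094 in insulin cells. With each cell drawn down to 10000 UMIs, the means were 1.69 Rnase4 UMIs per glucagon and 1.25 per insulin cell. Without hormone UMIs the levels were 252 and 262 CPM, with overlapping intervals. The following levels are those of glucagon cells. Rnase4 stood at 154 CPM (148 to 160) in 1048 WT cells and 166 CPM (160 to 172) in 857 Npc1-/- cells, and Ang at 74.0 CPM (70.1 to 78.0) and 86.3 CPM (82.0 to 90.8). The intervals of the libraries did not overlap for Ang, and for Rnase4 they met within rounding. On the log2 scale and relative to the median gene, Rnase4 differed by 0.08 (0.00 to 0.15) and Ang by 0.19 (0.09 to 0.30). Neither passed 0.5, and 1.13% of 9897 genes in glucagon cells did. The intervals of these ratios lay below those in insulin cells for both genes, and with 1 library per genotype the difference between the classes could not be tested.

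In PP cells, led by pancreatic polypeptide and peptide YY, both genes were again higher in the Npc1-/- library. Rnase4 was at 37.5 CPM (33.5 to 41.99) in 411 WT cells and 59.4 CPM (54.6 to 64.6) in 442 Npc1-/- cells, and Ang at 18.0 CPM (15.2 to 21.2) and 27.2 CPM (23.9 to 30.7). Against the median gene these were log2 ratios of 0.60 (0.40 to 0.81) and 0.53 (0.23 to 0.83), and 3.14% of 9971 genes passed 0.5. Ang stood under 0.5 as a mean over cells (0.37), with the stricter cell filter (0.48) and without cells of a second hormone (0.40). The summed β cell markers of PP cells also differed, with 11549 CPM in WT and 19127 CPM in Npc1-/- cells, while insulin took 1.24% and 1.41% of their UMIs. The part of these markers in the difference was not tested. In somatostatin cells (189 and 141 cells), Rnase4 was at 76.6 and 81.0 CPM, and Ang at 21.0 CPM (15.9 to 27.2) and 30.02 CPM (23.5 to 37.7), with overlapping intervals for both genes. The log2 ratio of Ang there was 0.50 (-0.01 to 1.03), at a limit that 8.67% of 10388 genes passed, and it stood under 0.5 as a mean over cells (0.32), with median-of-ratios scaling (0.48) and without Scrublet doublets (0.46).

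Outside the endocrine cells the levels of the pair spread further. Macrophages stood first for Rnase4 in both libraries, in WT with an interval overlapping that of fibroblasts, with 149 UMIs in 52 WT cells (238 CPM, 201.7 to 280) and 205 UMIs in 33 Npc1-/- cells (363 CPM, 315 to 416), and Ang rested on 43 and 62 UMIs (68.8 and 110 CPM). Both passed 0.5 there (0.61 and 0.67), as did 22.4% of 9748 genes in so few cells, and both stood under it without Scrublet doublets (0.28 and 0.38), Rnase4 also as a mean over cells (0.31). Fibroblasts had Rnase4 at 237 CPM (196 to 284) in 46 WT cells, overlapping macrophages, and at 175 CPM (143 to 213) in 60 Npc1-/- cells, below them, but only 7 and 11 UMIs of Ang, or 14.2 and 18.9 CPM. Stellate cells, a class that may include pericytes, had Rnase4 at 50.3 and 52.4 CPM and Ang at 7.70 and 8.48 CPM, with overlapping intervals between libraries.

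Endothelial cells, on which secreted angiogenin acts, had the lowest levels among classes found in both libraries. Rnase4 was counted with 49 UMIs in 440 WT cells and 28 UMIs in 445 Npc1-/- cells, or 11.01 CPM (8.14 to 14.6) and 5.03 CPM (3.34 to 7.27), and Ang with 14 UMIs in each, or 3.14 and 2.51 CPM. The log2 ratio of Rnase4 was -1.13 (-1.87 to -0.44), and 5.43% of 10184 genes were past -0.5. A Rnase4 UMI was found in 28 WT cells (6.36%, 4.27 to 9.07) and 26 Npc1-/- cells (5.84%, 3.85 to 8.44). The lower sum in Npc1-/- thus went with overlapping shares of cells. Free RNA from broken cells bears on levels this low. Insulin in endothelial cells stood at 3.096% of its level in insulin cells in WT and 1.78% in Npc1-/-, while Rnase4 stood at 19.2% and 3.94%. The part of free RNA in the lower Rnase4 was not tested. Lymphoid cells were found almost only in WT (208 cells against 1) and held 10 UMIs of Rnase4 and 3 of Ang.

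**Figure D2:**
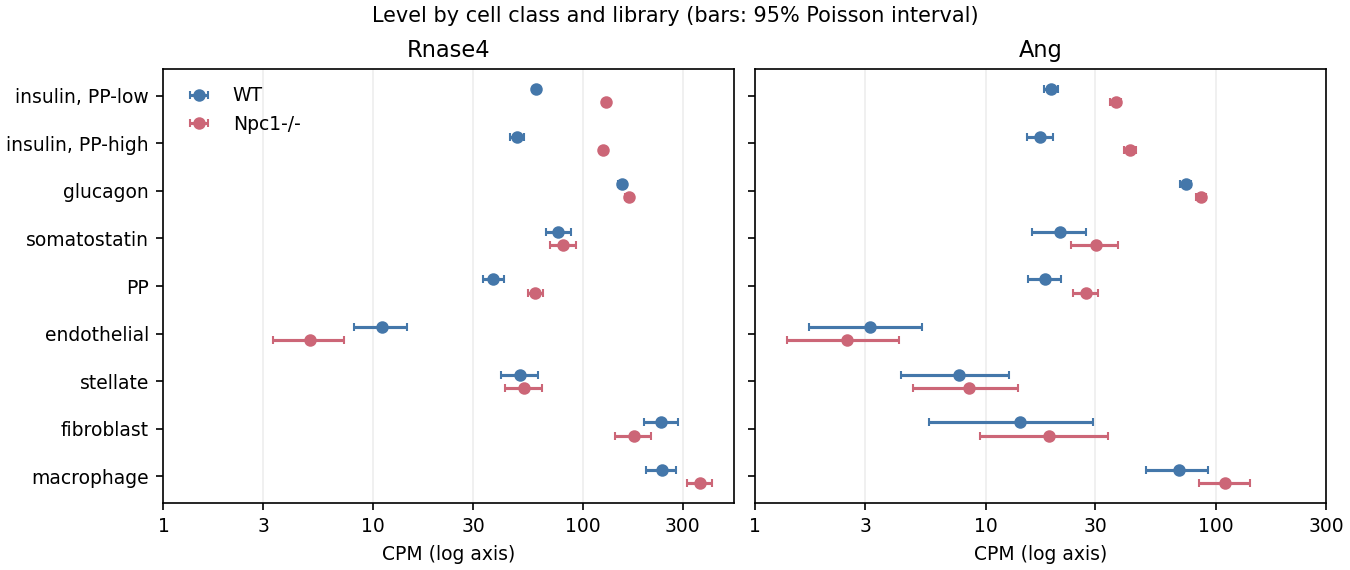
Levels of Rnase4 (left) and Ang (right) in CPM on a log axis, by cell class, for WT (blue) and Npc1-/- (red), with 95% Poisson intervals for counting error; insulin cells are split at 1% Ppy+Pyy. Both genes lie apart between libraries in both groups of insulin cells, Rnase4 at 60.3 against 129 CPM and 48.6 against 125 CPM, and close together in glucagon cells.

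In WT the order of Rnase4 levels was macrophages and fibroblasts, whose intervals overlapped, then glucagon cells, somatostatin cells, insulin cells, stellate and Schwann cells, PP cells, endothelial cells and lymphoid cells. From insulin to PP cells each interval overlapped that of the next class, as did those of endothelial and lymphoid cells. Duct cells have no place in the WT orders, since 23 were found and 30 were needed. They had Rnase4 at 112 CPM (80.7 to 153) and Ang at 24.7 CPM (11.3 to 46.8) in WT. In Npc1-/-, where fewer than 30 lymphoid cells were found, the order was macrophages, fibroblasts and glucagon cells (overlapping), insulin, duct and somatostatin cells (each overlapping the next), PP, stellate and Schwann cells (likewise) and endothelial cells. For Ang in WT, glucagon cells and macrophages came first with overlapping intervals (74.0 and 68.8 CPM), and somatostatin, insulin, PP and fibroblast cells followed, each overlapping the next. In Npc1-/- macrophages (110 CPM) and glucagon cells (86.3 CPM) overlapped, followed by duct, insulin, somatostatin, PP and fibroblast cells, each overlapping the next. Hormone transcripts take up a large part of the UMIs in endocrine cells, which lowers every other CPM. Counted over the UMIs without the hormone genes, Rnase4 reached 123 CPM in WT insulin cells and 262 CPM in Npc1-/- insulin cells, against 235 and 252 CPM in glucagon cells. On this scale the Npc1-/- insulin cells lay at or above glucagon cells, with overlapping intervals (256 to 269 and 243 to 261), whereas over all UMIs they lay below them. Ang was lower in insulin than in glucagon cells on both scales, with 80.3 against 131 CPM in Npc1-/- without the hormones.

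The number of Rnase4 UMIs per Ang UMI needs no scaling and was compared between classes. It says nothing of how many molecules of each exist, since capture at the 3′ end can differ between genes. In insulin cells it was 3.07 (2.86 to 3.29) in WT and 3.27 (3.11 to 3.43) in Npc1-/- with overlapping intervals. Glucagon cells had 2.08 (1.95 to 2.22) and 1.92 (1.80 to 2.04), and PP cells 2.08 (1.70 to 2.55) and 2.19 (1.88 to 2.55). The intervals of glucagon cells lay below those of insulin cells in both libraries; per Rnase4 UMI, more Ang was counted in glucagon cells. Stellate cells stood at 6.53 (3.77 to 12.1) and 6.19 (3.63 to 11.2), and fibroblasts at 16.7 (7.86 to 42.5) and 9.27 (4.97 to 19.2). In both stromal classes and both libraries these intervals lay above those of insulin cells. Across 20 points, 10 classes (insulin cells split by Ppy+Pyy) in both libraries, the log2 levels of Rnase4 and Ang had a Pearson correlation of 0.81, with classes of a library sharing that library's depth and free RNA.

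Insulin cells were then divided by their share of Ppy and Pyy, the hormones of PP cells. With under 1% Ppy+Pyy (1342 WT and 1005 Npc1-/- cells), Rnase4 was at 60.3 and 129 CPM and Ang at 19.2 and 36.6 CPM, ratios of 2.15 (2.04 to 2.26) and 1.91 (1.74 to 2.09), where 2.62% of genes passed 0.5. With 1% or more (491 and 821 cells), Rnase4 was at 48.6 and 125 CPM and Ang at 17.3 and 42.3 CPM, ratios of 2.58 (2.37 to 2.81) and 2.45 (2.12 to 2.84), where 3.11% of genes passed 0.5. Both genes were thus higher in Npc1-/- in each group, and the share of insulin cells in the Ppy+Pyy-rich group was also larger there. Within WT, cells rich in Ppy+Pyy had less Rnase4 than the others, by a ratio of 0.807 (0.739 to 0.879), whereas within Npc1-/- the ratio was 0.969 (0.923 to 1.02). For Ang the ratios were 0.900 (0.775 to 1.04) in WT and 1.16 (1.06 to 1.26) in Npc1-/-. Insulin took 53.0% of UMIs in Npc1-/- cells under 1% Ppy+Pyy and 44.1% in the others, which bears on these ratios. Counted without hormone UMIs, Rnase4 in Npc1-/- was at 278 CPM (270 to 287) and 243 CPM (234 to 252), without overlap. In WT it was at 132 CPM (127 to 137) and 97.8 CPM (90.5 to 105). Ang on that scale overlapped in both libraries, with 78.8 CPM (74.3 to 83.5) and 82.1 CPM (77.0 to 87.5) in Npc1-/-.

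In 5 finer bins of Ppy+Pyy, Rnase4 in WT stood between 61.5 CPM (58.0 to 65.1) in the lowest and 41.0 CPM (35.2 to 47.4) in the highest bin, and in Npc1-/- at 138 CPM (131 to 145) and 112 CPM (105 to 119). By the summed level of Ucn3 and Mafa, markers of mature β cells, Rnase4 was at 41.4 CPM in WT cells with under 100 CPM of these genes and 65.9 CPM in those with 600 CPM or more, and in Npc1-/- at 109 and 144 CPM. In both libraries the intervals of these outer bins did not overlap. For Ang they did, with 15.04 and 18.0 CPM in WT and 39.8 and 35.7 CPM in Npc1-/-.

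**Figure D3:**
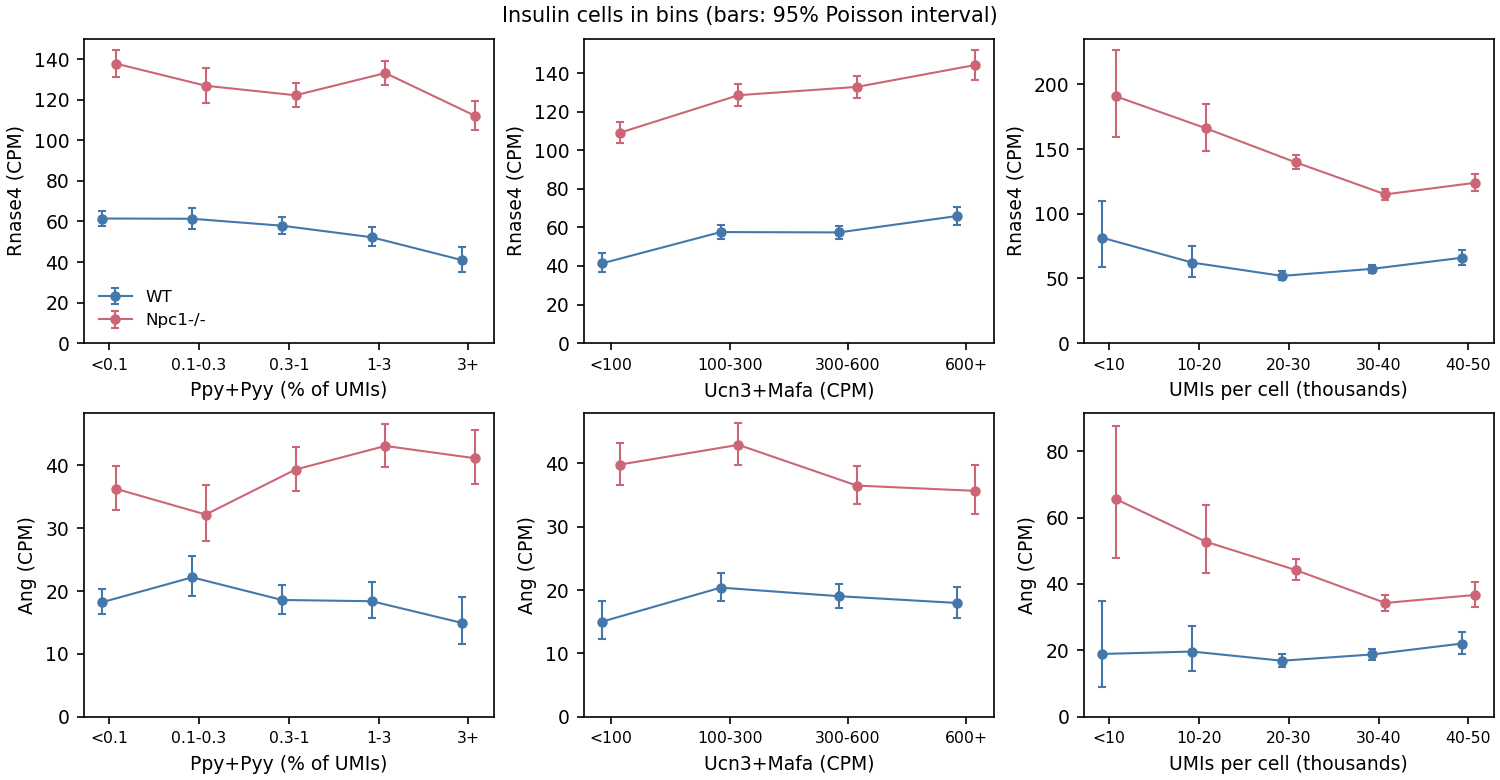
Rnase4 (top) and Ang (bottom) in CPM in insulin cells of WT (blue) and Npc1-/- (red), by Ppy+Pyy share, by Ucn3+Mafa level and by UMIs per cell, with 95% Poisson intervals. The Npc1-/- points lie above WT in every bin shown, and in Npc1-/- the cells under 10000 UMIs have the highest Rnase4 (191 CPM).

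Depth and cell quality were set beside the difference. In Npc1-/- insulin cells, Rnase4 was at 191 CPM (159 to 226) in cells under 10000 UMIs and 124 CPM (117 to 131) in those of 40000 to 50000 UMIs, against 81.4 and 65.9 CPM in WT. It was at 76.8 CPM in Npc1-/- cells under 3% mitochondrial UMIs and 163 CPM in those from 7% to 10%, against 47.6 and 62.2 CPM in WT. The ratio between libraries ran from 1.88 to 2.69 over the depth bins and from 1.61 to 2.62 over the mitochondrial bins. Cells with 3 or more of 6 cell cycle genes had a ratio of 2.54 (2.12 to 3.05) and the others 2.21 (2.11 to 2.31). Insulin cells were divided in 7 such ways (Ppy+Pyy, depth, mitochondrial share, insulin share, stress genes, cycle genes, Ucn3+Mafa), each over the same cells, so that the bins are not independent and describe the contrast by which the genes were chosen. In the 27 bins with cells of both libraries both genes were higher in Npc1-/-, with the interval above 1 in 26 for Rnase4 and 25 for Ang. The bin with 0.3% or more stress UMIs held 46 WT and 0 Npc1-/- cells and gave no ratio. The exception for Rnase4 was cells with 0.1% to 0.3% of UMIs from stress genes (Fos, Jun, Hspa1a, Hspa1b and Dnajb1), where the ratio was 1.09 (0.74 to 1.55) with 260 WT but 21 Npc1-/- cells.

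Markers of other cell types in insulin cells were set beside the difference too. The 7 macrophage markers summed to 27.8 CPM in WT and 44.0 CPM in Npc1-/- insulin cells, almost all of it C1qa (1452 and 2320 UMIs), and the other 6, of which Adgre1 had 0 UMIs in WT, summed to 71 and 62 UMIs. The 7 fibroblast markers summed to 18.5 and 12.4 CPM, the 6 acinar markers to 92.4 and 31.8 CPM, and the 5 α cell markers, led by Ttr, to 891 and 868 CPM. Of these 4 lists the macrophage one was higher in Npc1-/-, and without C1qa it stood at 1.30 and 1.14 CPM. Other lists were also higher in Npc1-/-, namely somatostatin (delta) cell markers (464 and 570 CPM), endothelial (44.1 and 54.6), stellate (20.7 and 22.7) and Schwann markers (8.07 and 8.81). Lymphoid markers (9.33 and 1.77 CPM) and duct markers (295 and 289 CPM) were lower. The part of C1qa or of any other of these markers in the result was not tested.

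At equal depth more insulin cells had a UMI of each gene in Npc1-/-. After each cell had been thinned to 5000 UMIs (26 WT and 22 Npc1-/- insulin cells were shallower and left out), 24.7% (22.8 to 26.8) of WT and 42.9% (40.6 to 45.2) of Npc1-/- cells had Rnase4, and 8.74% (7.48 to 10.1) and 16.2% (14.5 to 18.0) had Ang. Unthinned, the shares were 71.0% and 87.7% for Rnase4 and 38.7% and 59.4% for Ang. Thinning left out 47 and 32 endothelial cells, and the medians of that class before thinning were 7820 and 10289 UMIs. Of the rest, 4.58% (2.74 to 7.14) and 2.91% (1.51 to 5.02) had Rnase4, with overlapping intervals, and 1.78% and 1.45% had Ang. Both genes were below the insulin cells. In glucagon cells 50.1% (47.0 to 53.3) and 50.3% (46.9 to 53.7) had Rnase4, and 30.2% and 33.4% had Ang. At 10000 UMIs per cell, 59.8% of WT and 37.9% of Npc1-/- insulin cells had no Rnase4 UMI, and 10 Npc1-/- cells but 0 of 1747 WT cells had 8 or more. In the unthinned cells, the tenth with most Rnase4 held 33.9% of its UMIs in WT and 32.3% in Npc1-/-, and the median insulin cell had 1 and 3 UMIs.

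**Figure D4:**
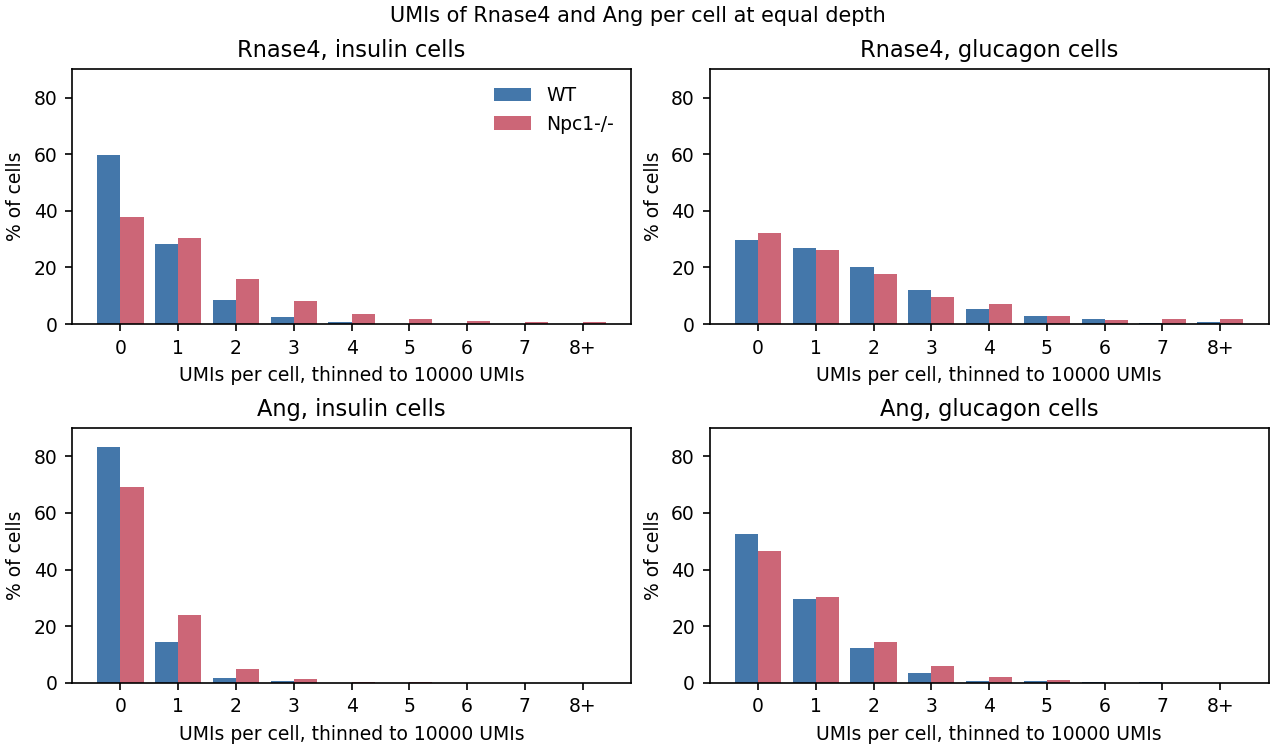
Percent of cells by their number of Rnase4 (top) or Ang (bottom) UMIs, each cell thinned to 10000 UMIs, in insulin (left) and glucagon (right) cells of WT (blue) and Npc1-/- (red). In insulin cells the whole distribution lies further right in Npc1-/-, with 37.9% against 59.8% of cells at 0 for Rnase4, while glucagon cells of the libraries lie close together.

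Most insulin cells with Rnase4 had no Ang UMI when thinned. At 10000 UMIs per cell, 141 WT cells had both, 561 had Rnase4 without Ang and 153 Ang without Rnase4, and in Npc1-/- 385, 686 and 148. Cells with both were 1.19 and 1.16 times as many as the separate shares of the genes would give if unrelated. Thinned to 10000 UMIs, 20.1% (17.2 to 23.2) of the WT insulin cells with Rnase4 and 14.6% (12.6 to 16.9) of those without it had an Ang UMI, and in Npc1-/- 35.9% (33.1 to 38.9) and 22.7% (19.5 to 26.1), without overlap in either library. At 5000 UMIs the shares were 10.1% (7.44 to 13.2) and 8.31% (6.90 to 9.90) in WT, with overlapping intervals, and 19.5% (16.8 to 22.5) and 13.7% (11.6 to 15.9) in Npc1-/-. The mean number of Ang UMIs was 0.161 in WT cells with no Rnase4 UMI and 0.569 in those with 3 to 4, and in Npc1-/- 0.262 and 0.566, with 1.09 in cells with 5 or more. At a given Rnase4 number of 0, 1 or 2 the Npc1-/- cells had more Ang than WT cells, and at 3 to 4 the intervals overlapped. Ang was itself chosen for being higher in Npc1-/- insulin cells, and equal thinned counts do not mean equal Rnase4 levels. Nothing beyond that choice is read from the comparison. Per cell the relation was weak, with a Pearson correlation of 0.16 in WT and 0.27 in Npc1-/- over the thinned cells, and in counts this sparse it is given as a description.

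**Figure D5:**
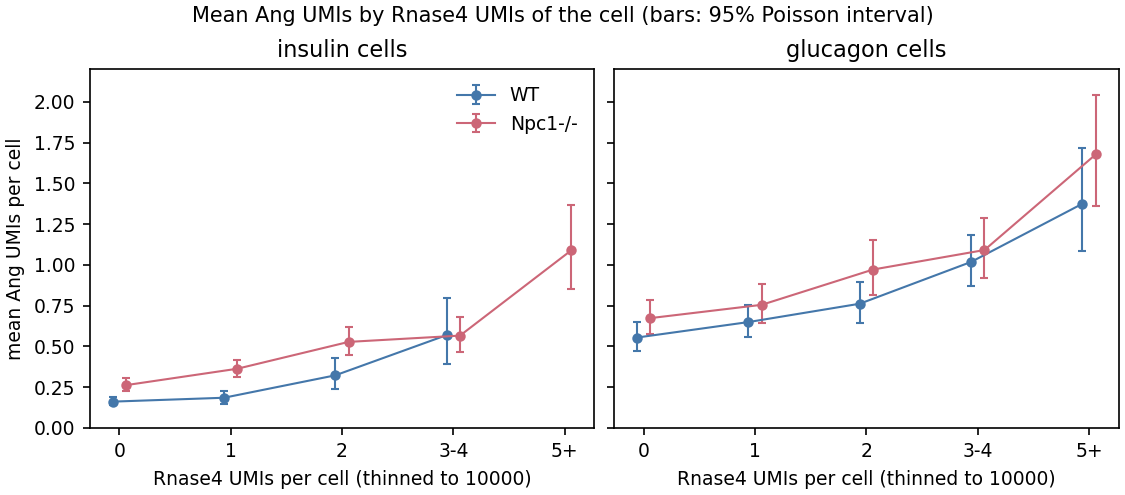
Mean Ang UMIs per cell (95% Poisson interval) by the number of Rnase4 UMIs in the same cell, each thinned to 10000 UMIs, in insulin and glucagon cells of WT (blue) and Npc1-/- (red); groups under 20 cells are left out. Ang is higher where Rnase4 is higher in both classes, from 0.262 to 1.09 in Npc1-/- insulin cells.

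Few other members of the RNase A family were detected in these islets. Of 20 listed genes, 14 had 0 UMIs over all kept cells of both libraries, Ang2, Ang4, Ang5 and Ang6 among them, against 7022 and 11282 UMIs of Rnase4. In insulin cells 16 were at 0, which allows up to 0.0548 CPM in WT and 0.0554 CPM in Npc1-/- (3 counts per library). The mouse Ang paralogs share exact runs of up to 31 bases with the last 500 bases of Ang. A read wholly within such a run can match more than 1 gene, but the sequencing that the paper names gives reads longer than these runs. Exact runs do not show how reads with mismatches align, and no alignment was examined. Rnase1, the pancreatic ribonuclease of acinar cells, had 227 and 141 UMIs in insulin cells (4.14 and 2.604 CPM), found in 43 WT and 125 Npc1-/- cells (2.35% and 6.85%), so that the summed level and the share of cells went opposite ways. Acinar markers were lower in Npc1-/- insulin cells, as given above, and their part was not tested. In glucagon cells Rnase1 had 60 and 91 UMIs (3.24 and 5.30 CPM), a log2 ratio of 0.67 (0.19 to 1.17), and in PP cells 2 and 26 UMIs. Rnase6 had 2 and 9 UMIs in insulin cells. Without Rnase4 and Ang, 0 of the 18 reached 5 CPM in insulin cells. In macrophages, Rnase6, a phagocyte ribonuclease, had 30 and 20 UMIs, of 242 in WT and 38 in Npc1-/- over all kept cells. Most of its WT UMIs thus lay in other classes. Ear2, an eosinophil-associated ribonuclease, had 41 UMIs in 6 of 52 WT cells, up to 13 in 1 cell, and 0 in 33 Npc1-/- cells. With so few cells holding it, no fold is read from this.

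A list of 11 partners and regulators of angiogenin, chosen with results of these data known, was measured in insulin cells in full, and 9 reached 5 CPM. Of these, 1 passed 0.5 upward and 0 downward, where 2.16% and 2.12% of all genes did, with a median log2 ratio of 0.04 against 0 for all genes. Rnh1, the inhibitor, had 98.8 CPM in the WT and 89.2 CPM in the Npc1-/- library, a log2 ratio of -0.27 (-0.32 to -0.21). Plxnb2, which encodes a receptor described for angiogenin, was at 50.7 and 69.8 CPM (0.34, 0.27 to 0.41), and G3bp1, a stress granule protein, at 78.9 and 79.7 CPM (-0.10, -0.17 to -0.04). The gene past the limit was Sdc4, a cell-surface heparan sulfate proteoglycan, with 25.5 and 42.3 CPM (0.61, 0.51 to 0.71). The insulator factor Ctcf was at 52.9 and 59.0 CPM (0.04, -0.04 to 0.11). In glucagon and PP cells 10 of the 11 reached 5 CPM and 0 passed in either direction, where 1.13% of all genes were higher and 1.47% lower in glucagon cells and 3.14% and 3.6% in PP cells. Sdc4 was at 48.5 and 51.7 CPM in glucagon cells. In the smaller classes 10 of the 11 were measured at this level. In macrophages 3 were higher (Rnh1, and on 7 or fewer UMIs per library Trdmt1 and Rnaset2b) and 1 lower (G3bp1), where 22.4% and 23.7% of genes were. In endothelial cells 1 was higher (Trdmt1) and 0 lower, against 3.68% and 5.43%. In stellate cells 1 was higher (Rnaset2a) and 1 lower (Trdmt1), against 8.4% and 10.9%.

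Neighbouring genes were measured in the same cells. Of 19 other protein-coding genes within 200 kb, 10 had 0 UMIs in insulin cells and 4 reached 5 CPM, namely Osgep, Apex1, Pip4p1 and Pnp. Their log2 ratios relative to the median gene ran from -0.37 (Pnp, 30.7 CPM in WT and 25.7 CPM in Npc1-/-) to -0.10 (Apex1, 14.5 and 14.7 CPM). Of the 4, 0 passed 0.5 in either direction, where 2.16% of all genes were higher and 2.12% lower. With shares this small, 0 of 4 says nothing particular to the locus.

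Genes with a like pattern were named by their correlation with the sum of Rnase4 and Ang. Over the 20 points of class and library and among 10469 genes, the highest Pearson correlations of log2 levels were 0.81 for Galk2, 0.79 for Nfxl1, 0.78 for Snx30, 0.76 for Limd2 and 0.75 for Syce2. They are the top of 10469 values over 20 points that are not independent, so nothing is read from their size. In insulin cells Galk2 was at 27.6 CPM in both libraries, Nfxl1 at 18.1 and 22.2 CPM, Snx30 at 13.1 and 16.8 CPM, Limd2 at 17.6 and 21.6 CPM and Syce2 at 11.1 and 10.7 CPM. Over single insulin cells the correlations were weak. Among 4145 genes the leading ones were Ftl1, the ferritin light chain, with 0.17 in WT and 0.23 in Npc1-/-, and Psap, the lysosomal prosaposin, with 0.16 and 0.18, followed by mt-Nd5, Zdhhc2 and Trio. Beside these, Rnase4 correlated with Ang at 0.19 and 0.30, and mt-Nd5 with the sum of the pair at 0.20 and 0.14. At 1151 and 1342 CPM, Ftl1 had a log2 ratio of 0.10 relative to the median gene.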

How the data were processed

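Dispersed islets of 1 WT and 1 Npc1-/- pool were profiled with 10x 3′ chemistry. For each library the authors deposited a filtered matrix of UMI counts, raw whole numbers for every gene in every barcode. The submitters' processing notes name Cell Ranger 3.1.0, mm10 and Seurat 4.0.3. Kept barcodes had over 1000 genes, below 50000 UMIs, below 10% of them mitochondrial and no more than 0.1% haemoglobin. Their totals were 94096566 UMIs in WT and 94392651 in Npc1-/-. Cells were classed by the leading hormone (Ins1+Ins2, Gcg, Sst or Ppy+Pyy, at least 10% of UMIs), and the rest by at least 3 detected markers of a type. Doublets were not removed, and Scrublet was run as an alternative. Counts were summed by class and library and divided by total UMIs (CPM). Log2 ratios had 0.5 counts added and were set relative to the median gene of all genes that reached 5 CPM in 1 or both libraries. A log2 ratio past 0.5 was counted as a call.

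Intervals are exact Poisson for levels, conditional binomial for ratios and Clopper-Pearson for shares, at 95%. Over insulin cells the variance of Rnase4 UMIs was 1.98 times their mean in WT and 3.50 times in Npc1-/-, part of it from depth. Intervals of levels and ratios leave out such spread between cells, so their overlap or lack of it is a description. Cells were not used as replicates and no test between genotypes was made. Thinned cells were drawn once to a fixed number of UMIs. Likeness used log2(CPM + 10) over classes, or log1p of CPM over insulin cells, among genes with at least 20 CPM. The text names the pair, its RNase A family, a list of partners and regulators (examples by highest CPM), protein-coding genes within 200 kb, the 5 most alike genes by each measure and Npc1. Some members of the partner list and 1 motif are not reported here. The members and lists were chosen with earlier results of these data known. Coordinates are those of GENCODE for GRCm38, and promoter windows those of RefSeq for GRCm38.p6. The alternatives changed the cell filter, the doublets, the scaling, the gene minimum, the depth of thinning and the Ppy+Pyy split. The tools were R 4.3.3 with edgeR 4.0.16 (TMM factors as an alternative) and Python 3.11.15 with scanpy 1.11.5, scipy 1.17.1, matplotlib 3.10.9, pandas 2.3.3 and numpy 2.4.6. The calculations were run on simulated data. The simulated sums were Poisson draws, the model of the intervals, with no spread between cells or libraries, so that run cannot show how the intervals hold under such spread.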

Additional observations from a re-analysis of the deposited data

Results flagged for a closer look

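Rnase4 and Ang were also higher in Npc1-/- among insulin barcodes that the filter left out. These barcodes are from the same libraries, so the values describe the contrast by which the genes were chosen and are no separate support. Among insulin barcodes with 50000 UMIs or more (153 in WT and 343 in Npc1-/-), Rnase4 was at 56.2 and 114 CPM, a ratio of 2.03 (1.86 to 2.23), and Ang at 21.5 and 36.6 CPM, a ratio of 1.71 (1.47 to 1.99). Such barcodes can hold more than 1 cell. Among insulin barcodes with 10% or more mitochondrial UMIs (82 and 60), Rnase4 was at 41.2 and 133 CPM, a ratio of 3.24 (2.33 to 4.54), and Ang at 18.3 and 34.1 CPM, a ratio of 1.86 (1.06 to 3.31).

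The summed level of Rnase4 was lower in Npc1-/- than in WT endothelial cells, with a log2 ratio of -1.13 relative to the median gene. In insulin cells it was higher, with 1.03. Each ratio rests on 1 library per genotype, and the difference between the classes was not tested. The share of endothelial cells with a Rnase4 UMI was 6.36% (4.27 to 9.07) in WT and 5.84% (3.85 to 8.44) in Npc1-/-, with overlapping intervals.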

How the results depend on the processing

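In insulin cells the log2 ratio of Npc1-/- over WT lay above 0.5 under all 13 alternatives run, from 0.93 to 1.15 for Rnase4 and from 0.88 to 1.08 for Ang. In PP cells it ranged from 0.54 to 0.74 and from 0.37 to 0.67, in macrophages (11 alternatives) from 0.28 to 0.77 and from 0.38 to 0.83, and in endothelial cells from -1.74 to -0.69 for Rnase4 and from -1.22 to 0.23 for Ang. Stellate Ang, at 0.14, passed 0.5 with the stricter cell filter (0.68) and a class limit of 20% (0.85). Somatostatin Ang ranged from 0.32 to 0.78.

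With no reference to the median gene, added after seeing the data, insulin cells gave 1.15 for Rnase4 and 1.06 for Ang, and those under 1% Ppy+Pyy 1.10 for Rnase4. As a mean over cells they gave 1.13 and 1.08, and those with 1% or more 1.42 for Rnase4. The stricter cell filter gave Rnase4 0.93 in insulin cells, 0.85 in those under 1% Ppy+Pyy and 0.52 in stellate cells, and the looser one gave Ang 0.98 in those with 1% or more. In the latter cells Rnase4 was at 1.41 without cells of a second hormone and 1.48 without Scrublet doublets (343 and 292 kept cells). Cells with 20000 UMIs or more, also added after seeing the data, gave Rnase4 0.22 in glucagon cells. Genes past 0.5 numbered 191 higher and 188 lower, 65 and 68 with a minimum of 20 CPM, 3035 and 2583 with none, and 424 and 102 with no reference to the median gene, where 80.6% of the calls were higher against 50.4%. Without thinning, the share of insulin cells with Rnase4 was 1.24 times that of WT, against 1.73.

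Without hormone genes, the log2 ratio of insulin over glucagon cells moved for Rnase4 from -1.42 to -0.94 in WT (-1.50 as a mean over cells) and from -0.38 to 0.060 in Npc1-/-, a reversal, and for Ang from -1.98 to -1.50 and from -1.14 to -0.71. Hormone UMIs leave the denominator by construction there. With the Ppy+Pyy split at 2%, rich over poor cells gave -0.45 for Rnase4 in WT and 0.082 for Ang in Npc1-/-. The cause was not tested for the other settings. Classes under 30 cells in a library were not run under a setting, as for macrophages with the stricter filter (22 and 10 cells). No paired analysis was possible because each genotype has 1 library, and for the same reason no library could be left out. Endothelial and fibroblast Ang rest on 14 or fewer UMIs per library.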
